A study of Saccharomyces cerevisiae with 2 samples.

Results

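The genes described here encode the small subunit processome and the small nucleolar ribonucleoproteins (snoRNPs) of the budding yeast Saccharomyces cerevisiae, measured in cells given 3% pyruvate against cells given 2% glucose. The members were taken by gene symbol: every gene named UTP with a number, and 25 further genes listed by name. Only current symbols were matched, so genes with a UTP number as an alias were left out unless listed by name. The rule used no measured value, but the members were chosen with earlier results of these data known. It gave 43 genes out of 5598 with a ratio, and all 43 had a value on both arrays. Each of 2 arrays held total RNA of both conditions in different dyes, and the dyes were exchanged: glucose RNA carried Cy5 on array 1 and pyruvate RNA carried Cy5 on array 2. No source used here names the strain, the medium, the culture density or the harvest, and no label says that the arrays held RNA of separate cultures. A p-value here sets a ratio against a spread drawn from the gaps between the arrays, of that gene and of all genes together. These gaps may be no more than technical, and with 2 arrays precision is low throughout.

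Ribosomal RNA is transcribed in the nucleolus as a long precursor, and the small subunit processome assembles on it while it is being made. The processome is a large particle of U3 snoRNA and many proteins, among them the subcomplexes UtpA, UtpB and UtpC, and it is required for the cuts that release 18S rRNA, the RNA of the small ribosomal subunit. Box C/D snoRNPs guide 2'-O-methylation of rRNA and box H/ACA snoRNPs guide its pseudouridylation, and a few of them, U3 included, act in cleavage and folding. In yeast the genes for these proteins belong to the ribosome biogenesis regulon, whose transcripts are known to follow growth rate and nutrient supply.

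All values below are log2 ratios of pyruvate over glucose, so that -1 stands for a transcript 2-fold lower in pyruvate. Where a mean is given, its error is the SD of the 2 arrays. No source states the direction. It takes the deposited ratio as Cy5 over Cy3, the usual order and that of the labels' channels. Read so, genes known to be repressed by glucose were higher in pyruvate on both arrays, with ADH2 at 5.84 and 6.28, JEN1 at 5.81 and 5.74, FBP1 at 5.69 and 5.37 and ICL1 at 3.78 and 3.83. HXT3, a transporter gene known to be induced by glucose, was lower, at -2.63 and -2.32. With the opposite order these signs and every sign below would turn. A ratio compares shares of the labelled RNA, and less of a transcript per cell cannot be told apart from fewer cells that express it. The median over all 5598 genes was 0.10, with 0.18 on array 1 and 0.02 on array 2, so arrays centred on their medians would place a gene about that much lower.

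Transcripts of the processome and of the snoRNPs were lower in pyruvate as a group. On both arrays the ratio was below 0 for 43 of 43 genes, against 36.3% of all genes. By limma's moderated test, adjusted by Benjamini-Hochberg across the 5598 genes and read at 0.05, 39 of the 43 fell, 0 rose and 4 did not pass (NHP2, SOF1, UTP11 and IMP3). Of all genes tested, 17.2% fell and 27.1% rose. At an unadjusted p under 0.05 the members' counts by limma were 40 lower and 0 higher, and 23.4% of all genes were lower at that level. The members' median was -1.05, which is 2.07-fold lower, with -1.07 on array 1 and -0.98 on array 2. After each array was centred on its median the members' median was -1.15.

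The decreases were moderate in size. At least 2-fold lower on both arrays were 20 of the 43 genes, against 4.81% of all genes. The means ran from -1.83 in ENP2 to -0.06 in IMP3, and the SD between the 43 means was 0.37, against 0.97 between all genes. Only 1 member, ENP2, was among the 100 genes with the lowest means, but 31 were among the lowest 559. The order of the members was close on both arrays, with a Pearson r of 0.90 across the 43 genes, given as a description since all points share the same 2 arrays. Over all genes the same r was 0.81. Ratios of opposite sign on the arrays, a pattern found in 16.1% of all genes, were found in 0 of the 43 members. That count follows from all 43 being below 0 on both arrays.

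**Figure D1:**
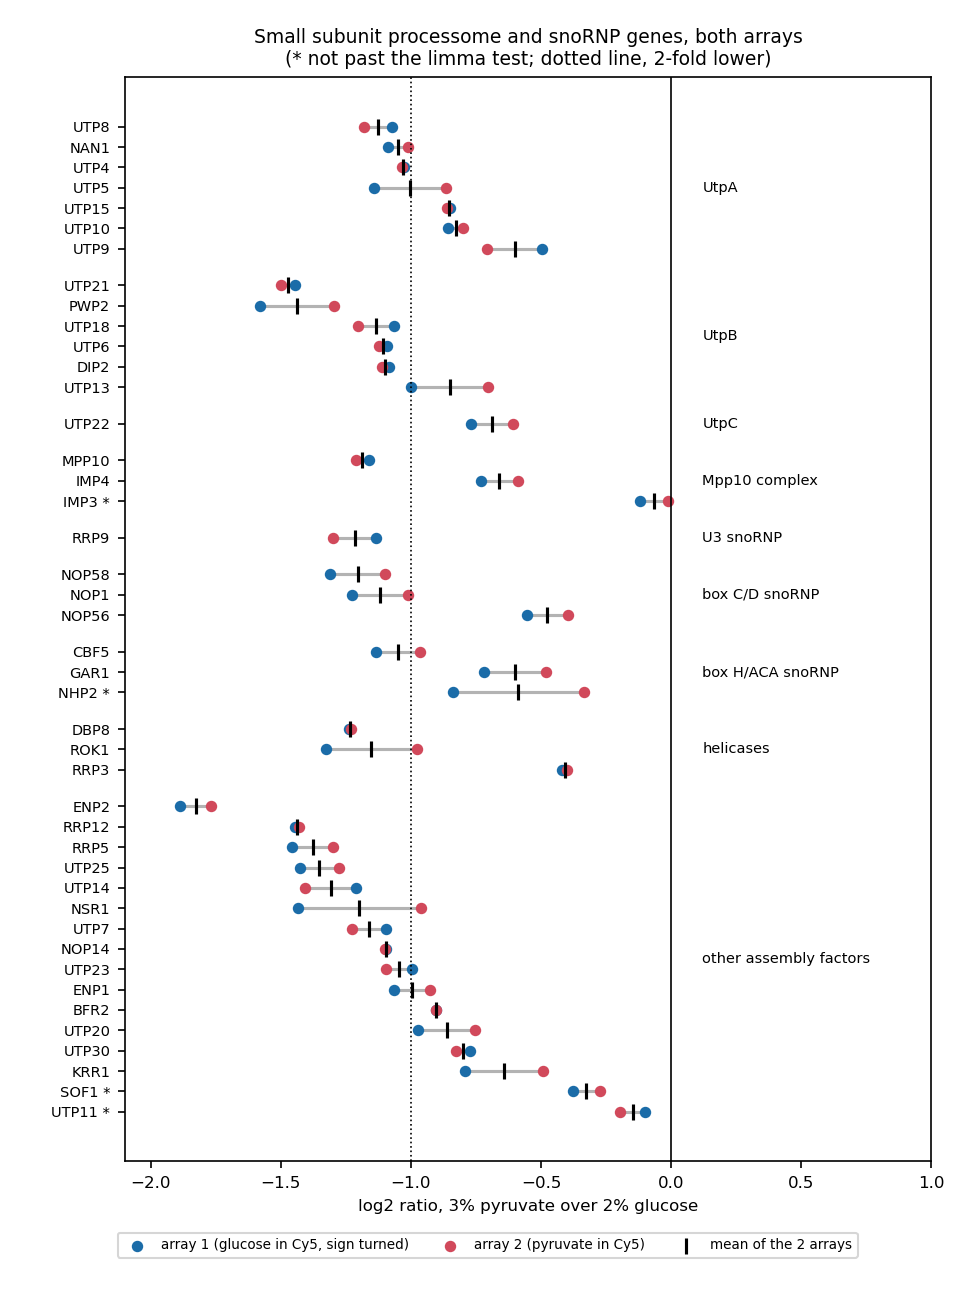
Log2 ratio of pyruvate over glucose (horizontal axis) for each of the 43 genes, grouped by role, with array 1 in blue, array 2 in red and their mean as a black tick; asterisks mark the 4 genes that did not pass limma. Every point lies left of 0, ENP2 lies farthest left with a mean of -1.83, and IMP3 lies nearest to 0.

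**Figure D2:**
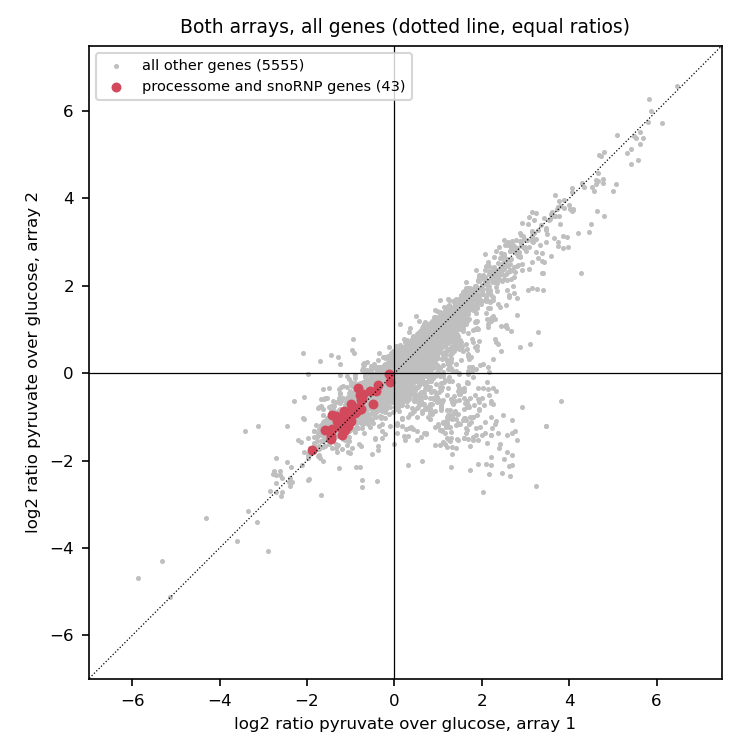
Log2 ratio on array 1 (horizontal) against array 2 (vertical) for the 43 processome and snoRNP genes in red and the other 5555 genes in grey. The red points form a compact cloud along the line of equal ratios below and left of 0, and none lies in the wing at the lower right, where grey genes were higher in pyruvate on array 1 and lower on array 2.

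UtpA is the first subcomplex to bind the nascent precursor, at its 5' external transcribed spacer, and several of its subunits have been linked to transcription of the rRNA genes as well. All 7 of its genes fell, with a median of -1.004 and means from -1.13 to -0.60. UTP8 was at -1.07 on array 1 and -1.18 on array 2, a mean of -1.13 ± 0.08 (n = 2; 2.18-fold lower; limma adjusted p = 0.0153). UTP4 was at -1.03 on each array, and NAN1, also called UTP17, was at -1.09 and -1.01. These 3 genes were past 2-fold on both arrays. UTP5 was at -1.14 and -0.87, UTP15 at -0.85 and -0.86, and UTP10, whose product is a long HEAT-repeat protein, at -0.86 and -0.80. The subunit with the smallest decrease was UTP9, at -0.50 and -0.71, a mean of -0.60 ± 0.15 (n = 2; limma adjusted p = 0.0376). UTP9 was higher than UTP8 by 0.58 on array 1 and by 0.48 on array 2, a pair chosen after its values were seen.

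UtpB follows UtpA onto the precursor and contacts both it and U3, and most of its subunits carry WD-repeat propellers. All 6 of its genes fell, with a median of -1.12. UTP21 was at -1.45 on array 1 and -1.50 on array 2 (mean -1.47 ± 0.04, n = 2; 2.78-fold lower; limma adjusted p = 0.0127). PWP2, also called UTP1, had a similar mean, -1.44 ± 0.20, from -1.58 and -1.30. The ranges of PWP2 and UTP21 overlapped. UTP18 (-1.06 and -1.20), UTP6 (-1.09 and -1.12) and DIP2, also called UTP12 (-1.08 and -1.11), stood close together and past 2-fold on both arrays. UTP13 was at -0.998 and -0.705, above the other 5 subunits on both arrays, and passed limma with an adjusted p of 0.0282.

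UTP22 is the only member from UtpC, in which its product joins Rrp7 and casein kinase 2. It was at -0.77 and -0.61, a mean of -0.69 ± 0.12 (n = 2; 1.61-fold lower; limma adjusted p = 0.0272). The genes of its partners did not follow it as a block. RRP7 was at 0.14 and 0.24, with a mean of 0.19 ± 0.07 that did not pass limma (adjusted p = 0.188). Of the 4 casein kinase 2 genes, only CKA2, a catalytic subunit, fell (-0.96 and -0.90; limma adjusted p = 0.0167). CKB1 (-0.16), CKA1 (0.05) and CKB2 (0.25), given as means, did not pass. Casein kinase 2 has many roles outside the ribosome.

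The Mpp10 complex held the widest contrast within one subcomplex. MPP10, whose product binds the other subunits, was at -1.16 on array 1 and -1.21 on array 2 (mean -1.19 ± 0.03, n = 2; 2.28-fold lower; limma adjusted p = 0.0143). IMP4, whose product binds Mpp10 and helps U3 pair with the precursor, was at -0.73 and -0.59 (limma adjusted p = 0.0275). IMP3, the third subunit, with the same pairing role, was at -0.12 and -0.01, a mean of -0.06 ± 0.08 (n = 2) that did not pass limma (adjusted p = 0.600). The 3 genes kept this order on both arrays and their ranges did not overlap. IMP3 was above MPP10 by 1.04 on array 1 and 1.20 on array 2, a mean of 1.12 ± 0.11 that exceeds the spread between the arrays. Limma's 95% interval for IMP3 ran from -0.37 to 0.24, so it does not hold the group's median of -1.05. The pair was chosen after its values were seen, and the difference was not tested.

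RRP9 encodes the WD-repeat protein that is found in U3 and in no other box C/D snoRNP. It was at -1.13 on array 1 and -1.30 on array 2, a mean of -1.22 ± 0.12 (n = 2; 2.32-fold lower; limma adjusted p = 0.0154).

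The core proteins that all box C/D snoRNPs share did not fall alike. NOP58, which with NOP56 encodes the scaffold of the particle, was at -1.31 and -1.10 (mean -1.20 ± 0.15, n = 2; limma adjusted p = 0.0161). NOP1, the methyltransferase known as fibrillarin in other eukaryotes, was at -1.23 and -1.01 (mean -1.12 ± 0.15, n = 2; limma adjusted p = 0.0174). NOP58 and NOP1 overlapped and both were past 2-fold on both arrays. NOP56 was at -0.56 and -0.40, a mean of -0.48 ± 0.11 (n = 2; 1.39-fold lower; limma adjusted p = 0.0471), outside the range of both. NOP56 lay above NOP58 by 0.75 on array 1 and by 0.70 on array 2, also a pair chosen after its values were seen. The fourth core protein gene, SNU13, which is no member by the rule, was at -1.38 and -1.26 (limma adjusted p = 0.0139). Its product also serves in the spliceosome.

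Among the box H/ACA genes the enzyme had the lowest ratios. CBF5, the pseudouridine synthase, was at -1.14 on array 1 and -0.96 on array 2 (mean -1.05 ± 0.12, n = 2; 2.07-fold lower; limma adjusted p = 0.0172). GAR1, whose product binds Cbf5 and carries glycine and arginine rich repeats, was at -0.72 and -0.48 (limma adjusted p = 0.0411). NHP2, an RNA-binding core subunit, was at -0.84 and -0.34. Its gap between arrays, 0.51, was the largest of any member, and its mean of -0.59 ± 0.36 (n = 2) did not pass limma (adjusted p = 0.0907). CBF5 was below GAR1 and NHP2 on each array, while GAR1 and NHP2 overlapped. NOP10, the remaining core subunit and no member by the rule, was at -0.39 and -0.17 and did not pass limma (adjusted p = 0.141).

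The members that encode DEAD-box RNA helicases split into a pair and a single gene. DBP8 was at -1.24 on array 1 and -1.23 on array 2 (2.35-fold lower; limma adjusted p = 0.0135). ROK1 was at -1.33 and -0.98 (limma adjusted p = 0.0216), overlapping DBP8. RRP3 was at -0.42 and -0.40, 1.33-fold lower, and passed limma narrowly with an adjusted p of 0.0474. RRP3 was above DBP8 by 0.82 on array 1 and 0.83 on array 2, more than the arrays differed for either gene. This pair was also chosen after its values were seen, and the difference was not tested.

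The remaining 16 members are assembly factors outside these subcomplexes, and 14 of them fell. ENP2, whose WD-repeat product works with Bfr2 in the particle, had the lowest mean of all members, at -1.89 and -1.77 (mean -1.83 ± 0.08, n = 2; 3.55-fold lower; limma adjusted p = 0.0126). BFR2 itself was at -0.90 on each array, above ENP2 and outside its range. RRP12 (-1.45 and -1.43), whose product takes part in export of precursor subunits from the nucleus, and RRP5 (-1.46 and -1.30), a factor needed for processing towards both ribosomal subunits, came next. UTP25 (-1.43 and -1.28), whose product resembles a helicase, and UTP14 (-1.21 and -1.41), the activator of the helicase Dhr1, were also past 2-fold on both arrays. These 4 genes and ENP2 had limma adjusted p between 0.0126 and 0.0153.

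UTP7, a WD-repeat protein gene (-1.10 and -1.23), and NOP14, also called UTP2 (-1.10 on each array), were past 2-fold too. NSR1, the yeast relative of nucleolin, was at -1.44 and -0.96, a mean of -1.20 ± 0.33 (n = 2; limma adjusted p = 0.0270), and it had the second largest gap between arrays. UTP23, whose product is linked to release of the snR30 snoRNA, was at -0.997 and -1.10, and ENP1, which stays with the subunit into the cytoplasm, was at -1.07 and -0.93. UTP20, a very long HEAT-repeat protein gene (-0.97 and -0.75), UTP30 (-0.77 and -0.83) and KRR1, a KH-domain protein gene (-0.79 and -0.49), fell by less than 2-fold on both arrays. The 2 factors that did not pass limma were SOF1, a WD-repeat protein gene at -0.38 and -0.27 (adjusted p = 0.0773), and UTP11 at -0.10 and -0.20 (adjusted p = 0.268). Limma's 95% intervals ran from -0.63 to -0.02 for SOF1 and from -0.45 to 0.15 for UTP11.

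Where a member had 2 features, they gave close values within an array. The 43 genes were read by 72 features, 14 genes by 1 feature and 29 by 2, and features of the same gene differed by at most 0.12 on either array. IMP3, UTP11, SOF1 and NHP2, the genes that did not pass, were each read by 1 feature, as was ENP2. For genes read by 1 feature, error within an array was not measured. The arrays differed by under 0.2 in 31 members and by more than 0.3 in 4. The median SD of the 2 arrays was 0.10 in the members and 0.13 over all genes. The ratio was lower on array 1 in 26 of the 43 members and in 2502 of all 5598 genes. A difference between arrays cannot be told apart from a dye effect here, since each dye order has 1 array.

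Other genes of the same pathway that the naming rule leaves out gave a more divided picture. Of 28 further processome genes, 16 fell, 1 rose and 11 did not pass limma, with a median of -0.80. The largest decreases were in ESF1, at -1.69 on array 1 and -1.94 on array 2 (limma adjusted p = 0.0132), and in DHR2, a helicase gene, at -1.78 and -1.68 (limma adjusted p = 0.0126). These means, -1.82 and -1.73, stood beside that of ENP2. The gene that rose was FCF2, at 0.49 and 0.69 (mean 0.59 ± 0.14, n = 2; limma adjusted p = 0.0371), a call that ended when the arrays were centred on their medians (0.49). RCL1 and RRP7 were above 0 on both arrays as well, at means of 0.21 and 0.19, and did not pass. SAS10, BUD21, NOC4 and FCF1, also in this list, have UTP numbers as aliases. SAS10 fell, with a mean of -1.31. BUD21 (-0.37), NOC4 (-0.42) and FCF1 (0.02), given as means, did not pass, and the arrays of FCF1 had opposite signs.

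Of 13 other snoRNP proteins and snoRNP assembly factors, 4 fell, with a median of -0.36. The lowest were SNU13 and BCD1, a box C/D assembly factor gene at -1.05 and -1.15, and the highest was HIT1, whose arrays gave 1.05 and -0.06. RVB2, an ATPase subunit of the chaperone that assembles box C/D particles, fell to -0.47 ± 0.04 (n = 2; limma adjusted p = 0.0395), and its partner RVB1, at -0.36 ± 0.07, did not pass (limma adjusted p = 0.0646). Of 12 factors that act later, on the nearly finished small subunit, 7 fell, with a median of -0.55. PRP43, a helicase gene with a second role in splicing, was at -1.09 and -1.14, TSR1 at -1.16 and -1.06, and FAP7 at 0.02 and 0.34.

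Large subunit assembly factors lay nearest to the members: 40 of 50 fell, with a median of -1.003. SDA1 (-1.73 and -1.34) and NOP12 (-1.62 and -1.44) were the lowest, and LOC1 (-0.08 and 0.46) the highest. Of 55 small subunit ribosomal protein genes, 15 fell. With centred arrays 27 fell, and 22.5% of all genes did. The list's median was -0.50, with -0.74 on array 1 and -0.26 on array 2. In that list 54 of 55 genes were lower on array 1 than on array 2, as were 40 of the 50 large subunit factors. Over all 5598 genes 2502 were. The lowest mean of the ribosomal protein list, that of RPS2, came from -2.31 and -0.63 and did not pass limma (adjusted p = 0.123). RPS4A was at -1.44 and -0.86 and RPS30A, the highest, at -0.01 and 0.20. Many of these genes have near-identical copies that a probe may not separate. Limma called 0 genes higher in the snoRNP, late maturation, casein kinase 2, large subunit and ribosomal protein lists, also at an unadjusted p under 0.05. Differences between the lists were not tested.

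**Figure D3:**
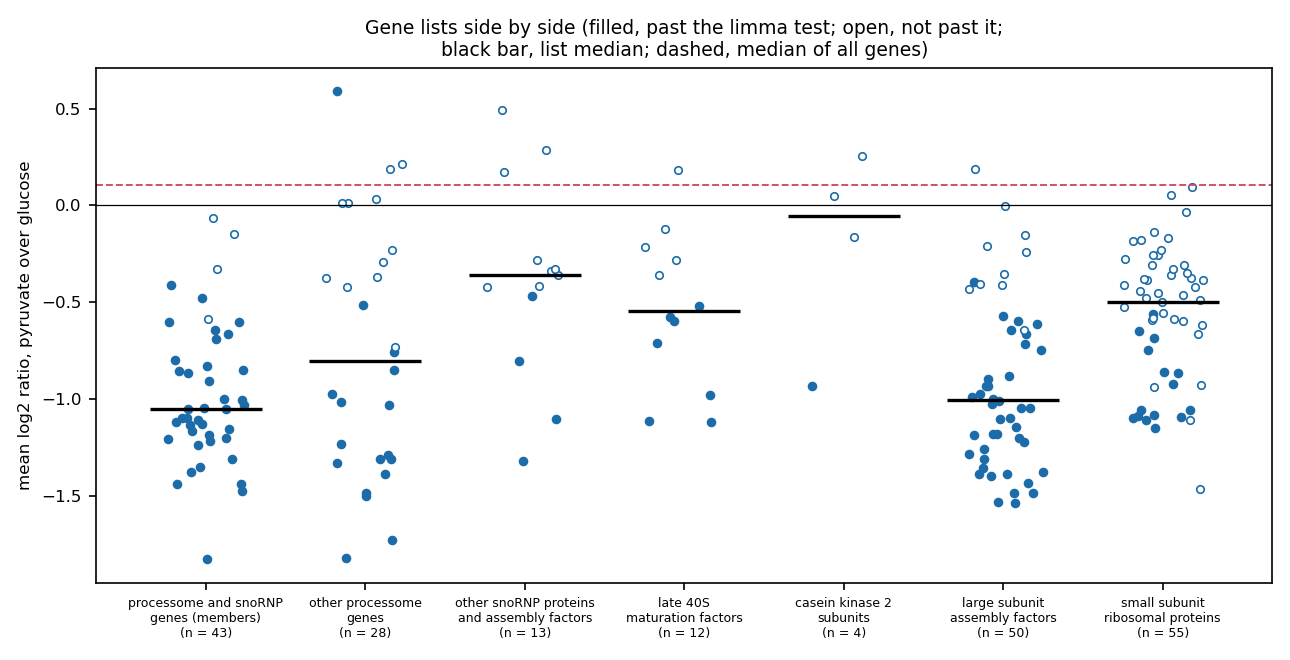
Mean log2 ratio of pyruvate over glucose (vertical axis) for the genes of the 43-gene group and of 6 other lists, each point a gene, filled where limma passed, with black bars at the list medians and a dashed line at the median of all genes, 0.10. The medians of the 43 genes and of the large subunit assembly factors, -1.05 and -1.003, lie lowest, and the other processome genes spread from -1.82 to 0.59.

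Short genes among the members had ratios nearer to 0 than long ones, a relation looked for after the values were seen. Lengths were those given for genes in the R64 assembly of RefSeq, which had one for all 43. Each of the 43 was a multiple of 3, as a coding length is. Over the genes of that assembly 96.3% were, so some lengths outside the members are not coding lengths. Of the 9 genes under 1000 bases, 6 fell, with a median of -0.64, and of the 34 longer genes 33 fell, with a median of -1.10. Over all genes the same split gave 9.66% fallen and a median of 0.36 under 1000 bases, and 21.8% fallen and a median of -0.03 from there on. The short genes were NHP2, IMP3, GAR1, UTP11, UTP23, UTP30, IMP4, KRR1 and NOP1, of which NOP1 (984 bases) and UTP23 (765 bases) nonetheless had means of -1.12 and -1.05. Spearman's rho of length with the mean ratio was -0.46 across the 43 genes, with -0.42 on array 1 and -0.49 on array 2. It was -0.71 across the 28 other processome genes and -0.30 across the 5577 genes of the table with a length. Genes are not independent replicates and all share the same 2 arrays, so these are descriptions. The part of length in the members' ratios was not tested.

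**Figure D4:**
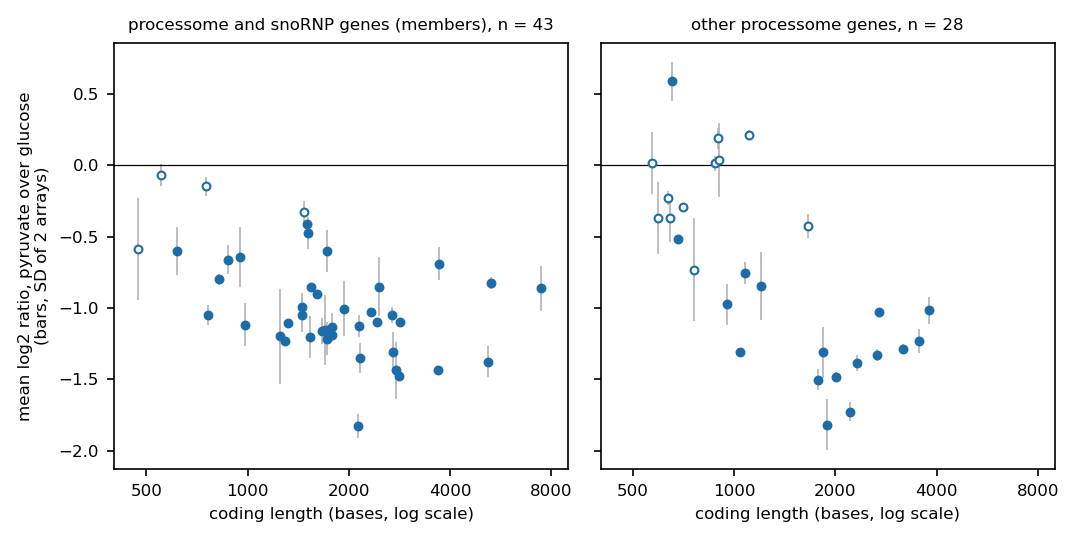
Coding length in bases (horizontal, log scale) against mean log2 ratio of pyruvate over glucose (vertical, bars the SD of 2 arrays) for the 43 members on the left and 28 other processome genes on the right, filled where limma passed. Of the members nearest to 0, IMP3 and UTP11 have 552 and 753 bases, while SOF1, RRP3 and NOP56, next in order, have 1470, 1506 and 1515. Of the other processome genes, 2 of 12 under 1000 bases fell and 14 of 16 longer ones.

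No member was the direct neighbour of another in the genome, and distances between members were not measured. Among the 86 places next to a member in the R64 order of protein-coding genes, 0 held another member and 4 held another gene of the assembly lists: SSF1 beside RRP3, NMD3 beside DBP8, RSA3 beside UTP13 and RPF1 beside GAR1. No member overlapped its neighbour. Members with a gene transcribed away from them on the other side of a shared upstream region gave a direct side by side reading. Of the 14 such divergent neighbours outside the lists, 2 fell, 5 rose and 7 did not pass limma, with a median of 0.32. Of 42 neighbours in tandem 7 fell and 11 rose, with a median of 0.05, and of 21 convergent neighbours 2 fell and 3 rose, with a median of 0.24. The 7 include RIX1 beside UTP9 and PWP1 beside NOP56, ribosome assembly genes that the lists do not hold. Over all genes 17.2% fell and 27.1% rose, and nothing is read from counts this small.

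The divergent neighbours that rose, named for the contrast with their member and chosen after their values were seen, were ATP5, MRPS16, SYF2, NCB2 and MRPL6. BFR2, at -0.90, faces ATP5, a subunit gene of the mitochondrial ATP synthase, at 2.72 on array 1 and 2.92 on array 2 (limma adjusted p = 0.0115). RRP12, at -1.44, faces MRPS16, a mitochondrial ribosomal protein gene at 1.65 and 1.94 (limma adjusted p = 0.0137). UTP8 faces SYF2, a splicing factor gene at 1.16 and 1.28, and UTP5 faces NCB2, a transcription regulator gene at 0.70 and 0.93, both past limma. IMP3, which did not pass, faces another mitochondrial ribosomal protein gene, MRPL6, at 1.39 and 1.45. Outside the lists, the divergent neighbours that fell with their member were VIP1 beside UTP21 (-0.828 and -0.998) and ICE2 beside UTP25 (-0.37 and -0.47; limma adjusted p = 0.0499). SSF1, a divergent neighbour from the large subunit list, fell beside RRP3 (-1.26 and -0.83; limma adjusted p = 0.0297). The divergent neighbours from the ribosomal protein list did not pass. They were RPS18A beside UTP6 (-0.86 and -0.47; limma adjusted p = 0.0541) and RPS10B beside RRP5 (-0.42 and -0.09; limma adjusted p = 0.214). In each pair with a neighbour that rose, the values of member and neighbour did not overlap, which follows from how the pairs were chosen.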

How the data were processed

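The data are the authors' deposited table of log2 ratios, 1 value per feature and array for 10807 features on 2 two-colour arrays. Per the labels' protocol, the RNA was linearly amplified before labelling, with an Agilent kit. No source used here gives the scanner, the background correction, the scaling or the order of the channels, and the base of the logarithm was inferred from the values. The ratio of array 1 was multiplied by -1 (r between the deposited columns over named features, -0.81). The platform annotation gave a single gene for 9202 features, and 9194 were given current names from RefSeq. Features of a gene were averaged, giving 5598 genes.

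All genes were fitted together with limma 3.58.1 in R 4.3.3 (lmFit and eBayes, with 1 residual and 1.67 prior degrees of freedom), adjusted by Benjamini-Hochberg and read at 0.05. No dye term was fitted, since 2 arrays leave no degree of freedom for one. The fit was run on simulated data whose changes were larger than the members' median, so recovery of changes of that size was not tested. Every member is named, and of each other list the 2 lowest and the highest gene by mean; other genes named were chosen after their values were seen. The members and lists were chosen with earlier results of these data known. Alternatives were centring, the median of features, leaving out features whose ratio equals, to 3 decimals in log2, that of 2 whole numbers no larger than 10, robust or no moderation, a test against 1.5-fold, and single arrays. Figures were made with matplotlib 3.10.9.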

Additional observations from a re-analysis of the deposited data

How the results depend on the processing

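The count of members that fell, 39, was 40 with centred arrays, where NHP2 passed too, 39 with the median of features and with robust moderation, and 37 of 41 without features lying at log2 of whole-number ratios. The share of all genes that fell was 17.2% in the main run and 22.5% with centred arrays. It was 17.2% with the median of features, 17.4% with robust moderation and 20.7% without the whole-number features. Without moderation the single residual degree of freedom gave 0 calls in the members and in each of the 6 other lists, with 24 of 43 members lower at an unadjusted p under 0.05 by the same test. Over all 5598 genes 5 fell and 5 rose after adjustment and 610 were lower unadjusted. In the other lists those unadjusted counts were 14 other processome genes, 3 other snoRNP genes, 2 casein kinase 2 genes, 6 late 40S factors, 22 large subunit factors and 2 ribosomal protein genes. Against a minimum change of 1.5-fold, limma called 15 members lower, against 184 of all 5598 genes (3.29%), with 10 other processome genes, 1 other snoRNP gene, 0 casein kinase 2 genes (1 at an unadjusted p under 0.05), 2 late 40S factors, 15 large subunit factors and 1 ribosomal protein gene. Centring moved the members' median to -1.15 and the count of lowered small subunit ribosomal protein genes from 15 to 27. Lowered genes among all 5598 went from 963 to 1261 with it. Centring also took RPS30A from 0.09 to -0.0076, ended the call of FCF2 and let RPS2 pass. With array 1 or array 2 left out in turn, the members' median was between -1.07 and -0.98 and the members at least 2-fold lower numbered between 21 and 25, with no test. Each array holds both conditions, so its ratio is already a paired comparison and no further block was fitted. The table holds no signals, so dim or saturated spots could not be bounded.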
